A study of Homo sapiens with 16 samples.

Results

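RNA labelled by an esterase in the mitochondria was compared with RNA labelled by the same esterase in the nucleus. The comparison takes 5 of the 12 pull-down libraries of the study, 2 mitochondrial and 3 nuclear, chosen by their labels, and describes them across all genes. The mitochondrial and the nuclear input, 1 library each taken without pull-down, served as a check.

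All cells were HEK293T, a human embryonic kidney line, and all libraries, controls included, came from cells given the probe AC-2 (50 µM, 3 min) and quenched with PMSF (1 mM). The mitochondrial group transiently expressed BS2 in the mitochondria and the nuclear group transiently expressed BS2 in the nucleus, in both cases for 24 h after plasmid transfection. RNA was harvested from whole cells, joined to biotin by click chemistry, pulled down and captured by poly(A), so RNAs without a tail are poorly seen. A transient transfection gives a mixed population of expressing and non-expressing cells, and the share of cells expressing BS2 was not given in the sources used here. No label says that replicates, though termed biological, were grown as separate cultures; the spread behind each p-value may therefore be technical. In bulk RNA of this kind, fewer labelled cells and less labelled RNA per cell cannot be told apart.

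In proximity labelling of this kind an enzyme is confined to a compartment, where it unmasks a probe that then reacts with nearby molecules. Human mitochondria transcribe their own small circular genome inside the matrix, separated from the cytosol by a pair of membranes, and its mRNAs encode core subunits of the respiratory chain and of ATP synthase. All other mRNAs are made in the nucleus, where some non-coding RNAs and incompletely spliced transcripts are held back while most mature mRNAs leave for the cytosol. Those that encode mitochondrial proteins are translated on cytosolic ribosomes, some of which sit on the outer mitochondrial membrane.

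The 5 pull-downs differed among themselves before any contrast was made. Depth was 9.45, 11.12 and 11.92 M reads in the nuclear and 20 and 10.7 M reads in the mitochondrial pull-downs, and 6.34 and 9.87 M reads in the nuclear and mitochondrial inputs, so 1 read stood for 0.0541 to 0.154 CPM (counts scaled to library size, the unit of level). Summed CPM was lower in the nuclear pull-downs (847391 to 914952) than in the mitochondrial ones (1028029 and 1082208). Nuclear replicate 1 lay nearest to nuclear replicate 2, but nearer to the mitochondrial pull-downs than to nuclear replicate 3 by median absolute log2 difference. That difference was 0.134 from nuclear replicate 2, 0.207 and 0.181 from the mitochondrial libraries and 0.256 from nuclear replicate 3. The 2 mitochondrial libraries lay 0.125 apart. By the SD of the differences, mitochondrial replicate 2 (0.365) and nuclear replicate 3 (0.364) were about equally far from nuclear replicate 1. Of 11 markers of blood, fibroblast, skin, liver and islet cells in the table, which this line should lack, 4 reached the level needed for testing. The 1 that was called, the collagen gene COL3A1, was at 5.62 and 5.09 CPM in the mitochondrial pull-downs and 3.29 to 3.55 CPM in the nuclear ones.

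Of 16133 genes tested, 4437 (27.5%) differed between the mitochondrial and nuclear pull-downs at a limma adjusted p under 0.05. There were 2850 genes higher in the mitochondrial pull-downs (17.7%) and 1587 higher in the nuclear pull-downs (9.84%). Most differences were small: the median fold of the called genes was 1.41. At 2-fold or more there were 59 genes higher in the mitochondrial pull-downs (0.366%) and 209 higher in the nuclear ones (1.3%), whereas at 4-fold or more the counts were 23 and 4. Levels did not overlap between the 2 mitochondrial and 3 nuclear libraries for 8306 genes (51.5%). Differences below are mitochondrial minus nuclear on the log2(CPM + 1) scale, with their standard error; on it, fold changes of genes around 1 CPM or less come out too small. Their median over all genes tested was 0.06.

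The split between directions depended on how libraries were scaled. With CPM rescaled to a common total the counts became 735 higher in the mitochondrial and 4044 higher in the nuclear pull-downs, and the median over all genes moved from 0.056 to -0.171. Quantile normalization gave 1782 and 1754. The 5 libraries fitted alone gave 789 and 730, and leaving out mitochondrial replicate 1, the deepest library, gave 863 and 732. Without nuclear replicate 1, the library nearest to the other group, they rose to 3714 and 2043. Directions of small differences are therefore relative to the deposited scaling.

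The inputs, which were not pulled down, moved in the same direction for most called genes. Of the 2850 genes higher in the mitochondrial pull-downs, 2235 (78.4%) were also higher in the mitochondrial input, against 46.8% of all genes tested. Of the 1587 genes higher in the nuclear pull-downs, 1265 (79.7%) were also higher in the nuclear input, against 52.5% of all genes. Across the 11791 genes with a mean of at least 5 CPM, the pull-down and input differences had a Pearson correlation of 0.451 and a Spearman correlation of 0.553, over genes that share libraries and are not independent. After subtracting the input difference, 90 genes (0.558%) were higher on the mitochondrial side and 60 (0.372%) on the nuclear side, with single inputs assumed to vary like the pull-downs.

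**Figure D1:**
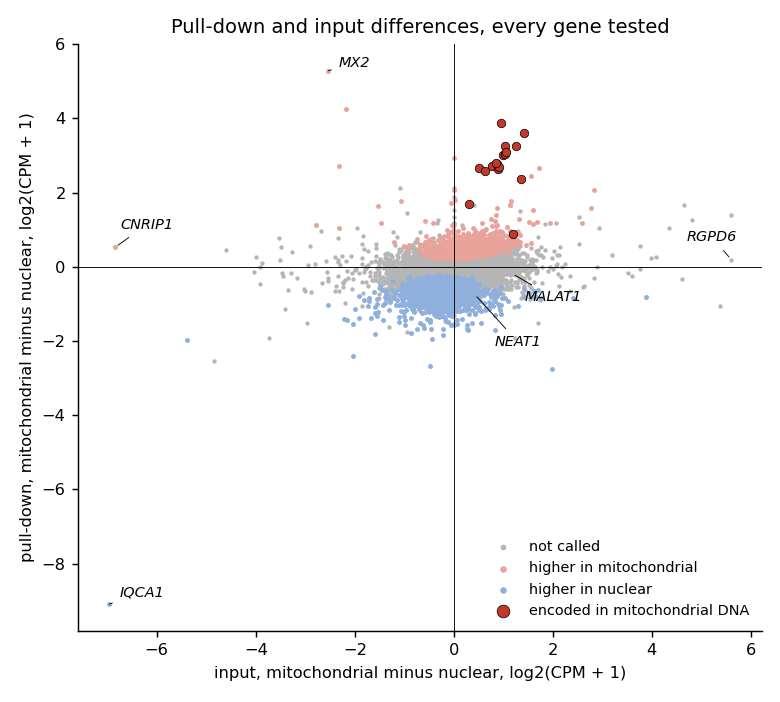
Mitochondrial minus nuclear difference of every gene tested in the inputs (horizontal axis) and in the pull-downs (vertical axis), both on the log2(CPM + 1) scale, with called genes coloured. The RNAs encoded in mitochondrial DNA form a group of their own at the top, IQCA1 lies far down on both axes, and CNRIP1 and RGPD6 differ in the inputs and hardly in the pull-downs.

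Of the 27 gene lists, the mRNAs of the mitochondrial genome had the largest median difference. Single genes outside them, among them IQCA1 and MX2, differed more. All 13 mitochondrially encoded mRNAs were higher in the mitochondrial pull-downs, each without overlap between the groups, by 2.59 to 3.88 (median 3.01). Their share of all CPM was 4.84% and 6.06% in the mitochondrial pull-downs and 0.998%, 0.725% and 0.906% in the nuclear ones, a fold of 6.22 between the means, with single pairs of libraries ranging from 4.85 to 8.36. The inputs pointed the same way with a smaller gap, 3.29% in the mitochondrial and 1.84% in the nuclear input. With the input difference subtracted, all 13 were still called higher on the mitochondrial side (median 2.02). Under quantile normalization the median pull-down difference was 2.16, with all 13 called. The input-corrected count was 7 under quantile normalization, 9 when only the mitochondrial and nuclear libraries were fitted, and 12 without mitochondrial replicate 2. The median input difference of the 13 was 0.95.

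The starts of 5 coding frames are shown to let the GC content of called genes be seen. IQCA1 and MX2 had larger differences than these genes. MT-ND6, EIF5B, FASTK and CCNL2 each had the largest difference of a gene list on their side. The first 90 coding bases are given 5′ to 3′ from GENCODE 29 (GRCh38), with G and C in capitals, for MT-ND6 (chromosome M, 14149 to 14673, minus strand) and MT-CO1 (chromosome M, 5904 to 7445, plus strand), which were higher in the mitochondrial pull-downs, and for EIF5B, a nuclear-encoded mRNA also higher there. They are followed by FASTK and CCNL2, which were higher in the nuclear pull-downs.
MT-ND6: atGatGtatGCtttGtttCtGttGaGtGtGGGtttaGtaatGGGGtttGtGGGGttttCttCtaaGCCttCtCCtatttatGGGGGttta
MT-CO1: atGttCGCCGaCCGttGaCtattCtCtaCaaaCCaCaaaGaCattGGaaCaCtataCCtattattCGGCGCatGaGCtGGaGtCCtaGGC
EIF5B: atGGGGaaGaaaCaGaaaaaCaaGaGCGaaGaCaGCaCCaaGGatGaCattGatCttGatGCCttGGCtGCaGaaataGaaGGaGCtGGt
FASTK: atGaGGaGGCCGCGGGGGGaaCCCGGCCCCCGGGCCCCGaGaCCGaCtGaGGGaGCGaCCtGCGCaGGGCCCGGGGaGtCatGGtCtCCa
CCNL2: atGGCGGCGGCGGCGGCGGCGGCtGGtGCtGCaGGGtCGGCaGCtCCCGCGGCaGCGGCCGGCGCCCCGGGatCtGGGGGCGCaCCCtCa
Over the whole coding frame, G and C made up 42.7% of MT-ND6, 46.2% of MT-CO1 and 39.5% of EIF5B, against 63.9% of FASTK and 58.2% of CCNL2. The gene with the largest nuclear-side difference, IQCA1, had a transcript GC content of 43.5%, near the median of the mitochondrial-side genes.

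Among the complex I subunits, MT-ND6 had the largest difference of the 13 mRNAs. It is the only mRNA carried by the other strand of the mitochondrial genome. Its level was 290.5 and 503.6 CPM in mitochondrial and 24.7, 22.01 and 28.9 CPM in nuclear pull-downs, a difference of 3.88 ± 0.190 (limma adjusted p = 7.28e-09). The inputs stood at 149.5 (mitochondrial) and 76.9 CPM (nuclear), and the input-corrected difference was 2.93 ± 0.353 (limma adjusted p = 9.93e-04). MT-ND2 was at 3707 and 4780 CPM against 536, 358 and 432 CPM (difference 3.27 ± 0.164), and MT-ND3, the subunit mRNA with the smallest difference in this complex, was at 500 and 537 CPM against 104, 63.0 and 85.8 CPM (2.64 ± 0.163).

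The mRNAs of complexes III, IV and V behaved alike in direction. MT-CO1, the catalytic subunit of cytochrome c oxidase, was at 11785 and 12515 CPM in mitochondrial and 2172, 1639 and 2019 CPM in nuclear pull-downs. Its difference was 2.65 ± 0.122 (limma adjusted p = 5.68e-09), and its input-corrected difference of 2.14 ± 0.225 had the smallest p among these mRNAs (limma adjusted p = 3.30e-04). MT-CYB, the cytochrome b mRNA of complex III, differed by 2.78 ± 0.152. MT-ATP8, an ATP synthase subunit read from the same transcript as MT-ATP6, was at 1176 and 1547 CPM against 141, 96.6 and 98.2 CPM, a difference of 3.60 ± 0.199, while MT-ATP6 differed by 3.09 ± 0.185. MT-ATP8 and MT-ATP6, like MT-ND4L and MT-ND4, overlap in sequence, so how reads were divided within each pair is uncertain.

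**Figure D2:**
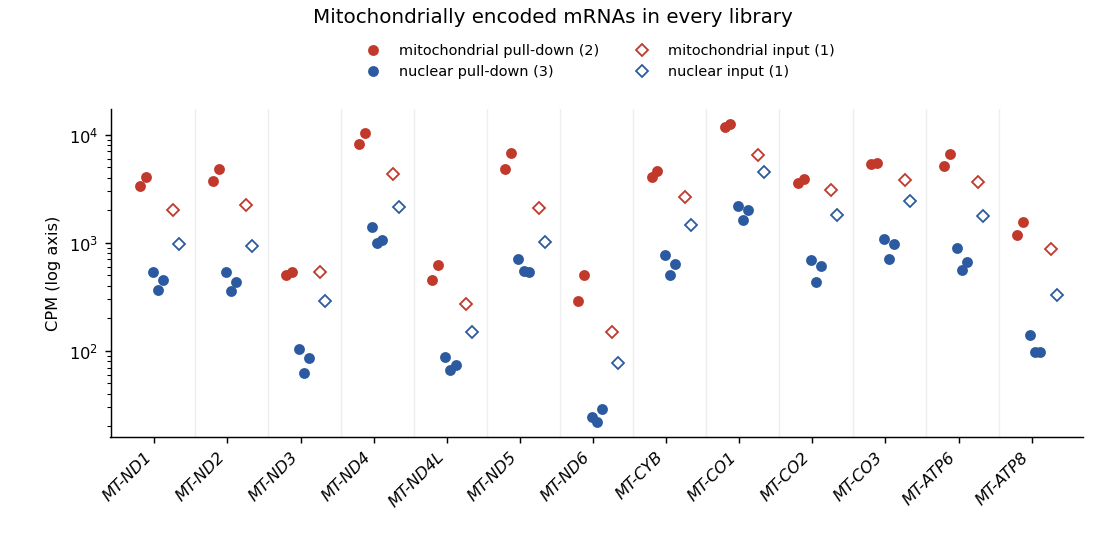
CPM (log axis) of the 13 mitochondrially encoded mRNAs, with a filled circle for each pull-down library and an open diamond for each input. In every gene both mitochondrial pull-downs lie above all 3 nuclear pull-downs, and the mitochondrial input lies above the nuclear input.

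The mitochondrial ribosomal RNAs followed. MT-RNR2, the large-subunit RNA, was at 8991 and 10481 CPM in mitochondrial and 1650, 1400 and 1436 CPM in nuclear pull-downs (difference 2.7 ± 0.149). MT-RNR1, the small-subunit RNA, was at 2377 and 2320 CPM against 491, 408 and 460 CPM (2.37 ± 0.112). Its inputs differed more than those of any mitochondrially encoded mRNA except MT-ATP8, at 3469 and 1347 CPM, and its input-corrected difference was 1.01 ± 0.206 (limma adjusted p = 0.0326). Of 10 mitochondrial rRNAs and tRNAs in the table, 4 were abundant enough to test and 4 were called higher in the mitochondrial pull-downs. Nuclear copies of mitochondrial genes have nearly the same sequence, so their reads are uncertain; of 4 tested, limma called 0, and 0 had an unadjusted p under 0.05.

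Against the non-transfected pull-downs, which both contrasts share, the median difference of the 13 mRNAs was 1.5 for the mitochondrial and -1.52 for the nuclear pull-downs. The non-transfected pull-downs held 1.77% to 2.23% of CPM in these mRNAs, between the 2 groups. The cytosolic pull-downs (0.845% and 0.931%) lay within the nuclear range. The nucleolar pull-downs (2.585% and 3.289%) lay above the non-transfected range, as the mitochondrial ones did, so a share above that of non-transfected cells was not particular to BS2 in the mitochondria.

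Nuclear-encoded mRNAs for mitochondrial proteins showed small differences that went both ways, and several lists lay near the background of 17.7% of all genes higher in the mitochondrial and 9.84% in the nuclear pull-downs. Of 80 nuclear-encoded subunits of oxidative phosphorylation, 20 were higher in the mitochondrial and 6 in the nuclear pull-downs (median 0.10), and of 83 mitoribosomal protein mRNAs 20 and 4 (median 0.15). Counts for import components were 9 and 2 of 33 (median 0.18), for mitochondrial gene expression factors 9 and 4 of 32 (0.15), for chaperones and proteases 5 and 2 of 15 (0.13), for tricarboxylic acid cycle enzymes 9 and 1 of 18 (0.28), and for SLC25 carriers 6 and 8 of 42 (0.01). With CPM rescaled to a common total, which shifts all genes, the medians of the first 5 of these 7 lists (-0.16, -0.11, -0.08, -0.11 and -0.13) and of the SLC25 carriers (-0.25) were negative. Relative to the median of all genes the first 5 changed little, from 0.05, 0.09, 0.12, 0.09 and 0.07 to 0.01, 0.06, 0.09, 0.06 and 0.04. After input correction 1 member of the 7 lists was called, the protease SPG7, on the nuclear side.

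Single members differed in both directions. NDUFA5, a complex I subunit, was at 179.7 and 147.6 CPM in mitochondrial and 125.3, 80.01 and 77.0 CPM in nuclear pull-downs (0.82 ± 0.162, limma adjusted p = 2.44e-03), and without mitochondrial replicate 1 it was 0.68 (limma adjusted p = 0.0503). The lipoamide dehydrogenase mRNA DLD, at 242 and 221 CPM against 164, 152 and 133 CPM, differed by 0.63 ± 0.0895. HSPD1, the chaperonin of the matrix, differed by 0.48 ± 0.0889, but by 0.015 under quantile normalization. In the other direction COX7A2L, a respiratory supercomplex factor, was at 2025 and 1670 CPM against 2945, 3287 and 3532 CPM (-0.82 ± 0.0955), with a larger gap between the inputs (551 and 1414 CPM). MRPS24, a mitoribosomal protein, was at 182 and 164 CPM against 355, 529 and 474 CPM (-1.36 ± 0.166), and its inputs were at 127.6 and 275 CPM. Both mRNAs were lower in the non-transfected pull-downs than in every transfected group, whatever the place of BS2. Mean levels of COX7A2L were 145 CPM in non-transfected, 2283 CPM in cytosolic and 2270 CPM in nucleolar pull-downs. Those of MRPS24 were 50.8, 273 and 389 CPM. FASTK, the founding member of a family of mitochondrial RNA-binding proteins, was at 19.8 and 21.05 CPM against 47.0, 51.4 and 71.1 CPM (-1.401 ± 0.145, limma adjusted p = 3.62e-05). In SPG7, a subunit of the inner-membrane AAA protease, the levels were 38.8 and 35.1 CPM against 66.3, 74.4 and 77.3 CPM (-0.96 ± 0.0993), with an input-corrected difference of -0.85 (limma adjusted p = 0.0409).

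Among cytosolic mRNAs, many of those for translation and the secretory pathway were called in the mitochondrial direction, where 17.7% of all genes were. Calls in this direction also went with level: 46.2% of all nuclear-encoded genes in the quintile with the highest mean level were higher in the mitochondrial and 4.2% in the nuclear pull-downs, against 1.7% and 5.9% in the lowest quintile. The part of level in the counts of these lists was not tested. Of 82 cytosolic ribosomal protein mRNAs, 48 were higher in the mitochondrial pull-downs and 0 in the nuclear ones (median 0.34), of 32 translation factors 17 and 0 (0.27), and of 30 mRNAs of the endoplasmic reticulum and secretory pathway 19 and 0 (0.39). The 23 housekeeping mRNAs gave 13 and 0 (0.35), the 12 heat shock mRNAs 6 and 1 (0.27), and the 26 nucleolar protein mRNAs 7 and 0 (0.17). At an unadjusted limma p under 0.05, the nuclear-side counts of the 5 lists with 0 calls were 0, 0, 1, 0 and 2 in the order given. Without mitochondrial replicate 1 the mitochondrial-side counts were 11 for the ribosomal, 8 for the translation factor and 8 for the secretory list. These counts moved with the scaling: with a common total, which shifts all genes, the ribosomal list gave 13 and 0, the translation factors 8 and 6, the secretory list 10 and 2 and the nucleolar proteins 3 and 7. Relative to the median of all genes, the medians of the ribosomal, translation factor and secretory lists were 0.28, 0.21 and 0.33 in the deposited scaling, 0.25, 0.18 and 0.30 with a common total, and -0.02, -0.13 and 0.05 under quantile normalization. After input correction 1 ribosomal protein mRNA and 1 translation factor were called, both on the mitochondrial side.

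EIF5B, the factor that joins ribosomal subunits, was at 773 and 810 CPM in mitochondrial and 465, 442 and 363 CPM in nuclear pull-downs, a difference of 0.91 ± 0.0992 (limma adjusted p = 6.20e-05). RPL26 stood at 841 and 777 CPM against 512, 436 and 467 CPM (0.78 ± 0.0956). NCL, the nucleolar protein nucleolin, was at 2094 and 2099 CPM against 1308, 1229 and 1072 CPM (0.81 ± 0.0939). SEC62, a subunit of the translocation machinery, differed by 0.73 ± 0.114, and TPT1, an abundant growth-linked protein, by 0.79 ± 0.0961. These 5 genes kept their direction and call under every scaling and every left-out library. HSP90AA1, a cytosolic chaperone, differed by 0.72 ± 0.0896 but by -0.28 under quantile normalization (limma adjusted p = 0.0121), and NPM1 by 0.66 ± 0.0983 but by -0.28.

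**Figure D3:**
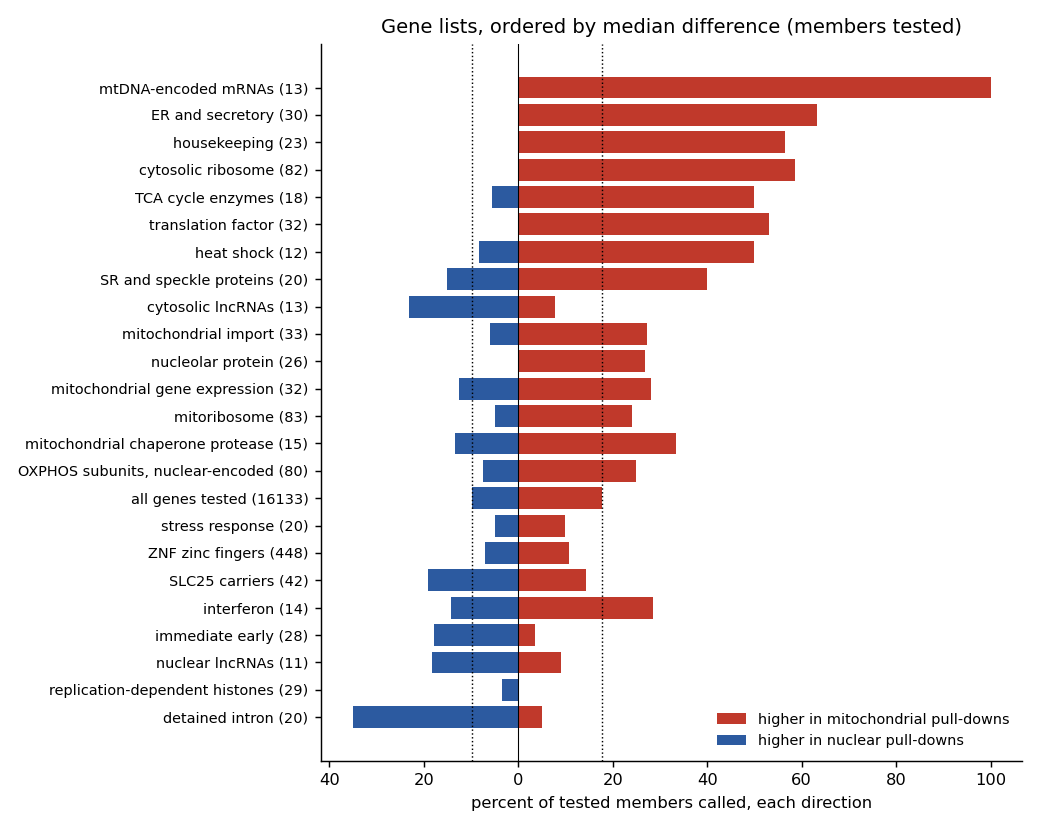
Percent of tested members higher in the mitochondrial (red, right) or nuclear (blue, left) pull-downs in each gene list with at least 10 tested members, ordered by median difference, with all genes tested as dotted lines. The mitochondrially encoded mRNAs are the only list shown at 100, and the detained-intron mRNAs have the longest bar on the nuclear side.

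On the nuclear side, where 9.84% of all genes were called, the detained-intron list had the highest share among lists with at least 10 tested members. Detained introns are spliced late, and mRNAs that carry them wait in the nucleus. Of 20 such mRNAs, 7 were higher in the nuclear and 1 in the mitochondrial pull-downs (median -0.16), and the nuclear count was between 11 and 16 under the 4 other scalings. CCNL2, a cyclin of the splicing-linked kinases (chromosome 1, 1385711 to 1399328), was at 66.0 and 68.8 CPM in mitochondrial and 149.2, 162.2 and 157.7 CPM in nuclear pull-downs. Its difference was -1.20 ± 0.108 (limma adjusted p = 8.41e-06), its inputs were close (55.1 and 63.2 CPM), and its input-corrected difference was -1.01 (limma adjusted p = 0.0304). OGT, the O-GlcNAc transferase, was at 233 and 235 CPM against 412, 458 and 381 CPM (-0.83 ± 0.0947), with inputs of 153 and 146 CPM and an input-corrected difference of -0.89 (limma adjusted p = 0.0254). Input-corrected calls of this list numbered 3 on the nuclear side and 1 without nuclear replicate 2. With only the mitochondrial and nuclear libraries fitted, the number was 0, so neither CCNL2 nor OGT was called. Leaving out a mitochondrial library leaves 1 in that group, so only the size of the difference is given. The median input-corrected difference of the list was -0.25 with all libraries. It was -0.32 without mitochondrial replicate 1 and -0.24 without mitochondrial replicate 2. RSRP1 was at 35.7 and 33.4 CPM against 66.8, 65.5 and 63.2 CPM (-0.90 ± 0.0987). TRA2A went the other way, at 292 and 263 CPM against 248, 191 and 176 CPM (0.45 ± 0.116).

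Of 20 mRNAs for splicing factors of the SR family and other speckle proteins, 8 were higher in the mitochondrial and 3 in the nuclear pull-downs (median 0.26). SRSF1 (0.40 ± 0.0945) and BCLAF1 (0.53 ± 0.102) were among the 8, and ACIN1 (-0.38 ± 0.0728) and SRRM2 (-0.30 ± 0.0894) among the 3. With a common total the counts were 1 and 6, and under quantile normalization 0 and 7. Relative to the median of all genes the list's median was 0.20 in the deposited scaling, 0.17 with a common total and -0.11 under quantile normalization.

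Among 11 tested lncRNAs of known nuclear location, 2 were higher in the nuclear and 1 in the mitochondrial pull-downs. NEAT1, the scaffold of paraspeckles, was at 125.2 and 141.8 CPM in mitochondrial and 231, 214 and 221 CPM in nuclear pull-downs, a difference of -0.73 ± 0.130 (limma adjusted p = 1.36e-03). Its inputs ran the other way, with 51.8 CPM in the mitochondrial input against 38.5 CPM in the nuclear one. MALAT1, a lncRNA of nuclear speckles, was at 1322 and 1443 CPM against 1849, 1435 and 1437 CPM, so the groups overlapped, and its difference of -0.18 ± 0.128 did not pass (limma adjusted p = 0.323). It passed with a common total (-0.442, limma adjusted p = 0.0112) and under quantile normalization (-0.696, limma adjusted p = 1.26e-03). In the inputs MALAT1 was at 300.6 and 132.7 CPM, so its input-corrected difference was -1.35 ± 0.234 (limma adjusted p = 0.0121), resting on 1 library a side. With only the mitochondrial and nuclear libraries fitted, 0 of these 11 lncRNAs had an input-corrected call. JPX, at 117.2 and 117.8 CPM against 103.4, 82.9 and 78.1 CPM, was the member called in the mitochondrial direction (0.42 ± 0.105), and it lost its call under a common total (0.16, limma adjusted p = 0.193).

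Over all lncRNAs, 210 of 2097 tested were higher in the nuclear and 53 in the mitochondrial pull-downs, against 1376 and 2793 of 14010 protein-coding genes. The nuclear-side share was 10.0% of lncRNAs and 9.8% of protein-coding genes, both near the 9.84% of all genes. The mitochondrial-side share was 2.5% of lncRNAs and 19.9% of protein-coding genes. The hosts of microRNAs were singled out after their values were seen: of 21 tested, 7 were higher in the nuclear and 1 in the mitochondrial pull-downs, while the median input difference of the 21 was 0.26. MIR34AHG, host of miR-34a (chromosome 1, 9148011 to 9198906), was at 8.92 and 7.50 CPM in mitochondrial and 27.5, 27.1 and 30.7 CPM in nuclear pull-downs, a difference of -1.68 ± 0.186 (limma adjusted p = 6.72e-05). MIR503HG (-1.56 ± 0.214), MIR17HG (-1.07 ± 0.224) and MIR222HG (-0.66 ± 0.199) differed in the same direction. Input-corrected differences passed for MIR34AHG, MIR503HG and MIR222HG. Host genes of small nucleolar RNAs, which are spliced and exported, were found here as well: GAS5 was at 228 and 186 CPM against 347, 341 and 331 CPM (-0.72 ± 0.0881), SNHG1 differed by -0.54 ± 0.0845 and SNHG15 by -0.76 ± 0.124. The inputs of SNHG15 differed more and in the same direction (64.1 CPM for the mitochondrial input against 140.2 CPM for the nuclear one). After input correction limma called 0 of the 13 cytosolic lncRNAs, and 4 had an unadjusted p under 0.05. GAS5, SNHG1 and SNHG15 were the 3 of 13 cytosolic lncRNAs higher in the nuclear pull-downs, and NORAD was the 1 member higher in the mitochondrial ones (0.26 ± 0.0913), a difference of -0.001 with a common total and -0.019 under quantile normalization. Only 4 of 51 small nucleolar and Cajal body RNAs could be tested, with 1 higher in the nuclear pull-downs.

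**Figure D4:**
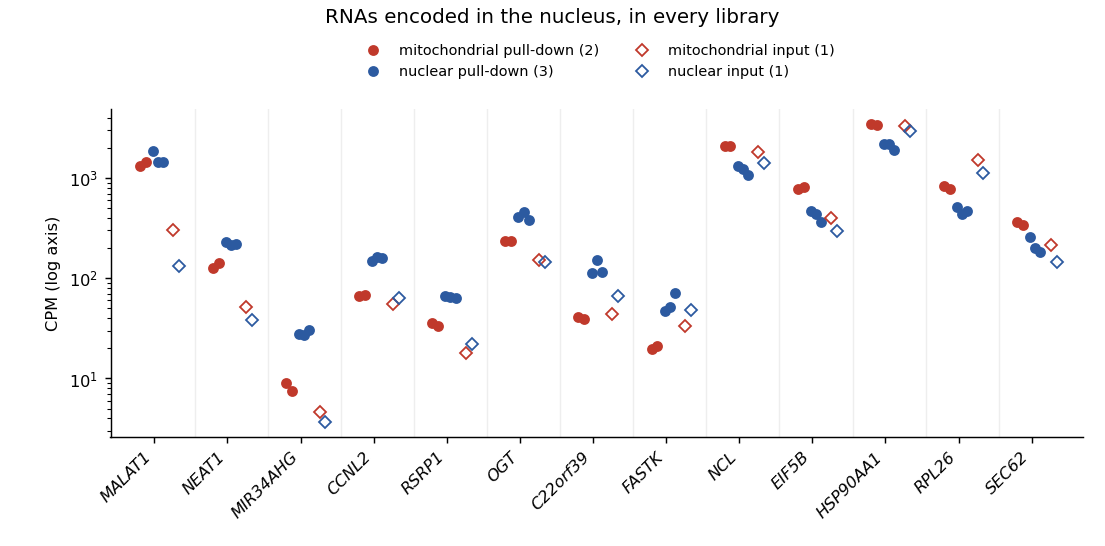
CPM (log axis) of 13 RNAs encoded in the nucleus, with a filled circle for each pull-down library and an open diamond for each input. NEAT1, MIR34AHG, CCNL2, RSRP1, OGT, C22orf39 and FASTK lie higher in all 3 nuclear pull-downs, NCL, EIF5B, HSP90AA1, RPL26 and SEC62 lie higher in both mitochondrial pull-downs, and the groups overlap for MALAT1.

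The remaining lists can be read against 17.7% of all genes higher in the mitochondrial and 9.84% in the nuclear pull-downs. Of 448 ZNF zinc finger mRNAs 48 were higher in the mitochondrial and 32 in the nuclear pull-downs, and of 28 immediate-early mRNAs 1 and 5. Replication-dependent histones gave 0 and 1 of 29 (0 and 3 at an unadjusted limma p under 0.05), stress response mRNAs 2 and 1 of 20, and interferon-linked mRNAs 4 and 2 of 14. Of 73 genes named as a fusion of neighbouring genes, 8 were higher in the mitochondrial and 14 in the nuclear pull-downs, and reads of such genes cannot be assigned with certainty.

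Some of the largest single differences were also seen between the inputs or rested on 1 library. IQCA1, a ciliary protein gene (chromosome 2), was at 631, 545 and 469 CPM in the nuclear pull-downs and at 0 in both mitochondrial ones, at least 2440-fold higher when 0 is replaced by 3 reads per library. Its inputs differed too, at 246 CPM in the nuclear and 0.987 CPM in the mitochondrial input. Mean levels of IQCA1 were also low in the other pull-downs, at 0.261 CPM in non-transfected, 0 in cytosolic and 0.0956 CPM in nucleolar ones. Its near absence was thus not particular to the mitochondrial group. MX2, an interferon-induced GTPase gene, was at 184.7 and 27.8 CPM in mitochondrial and 0.581 to 1.42 CPM in nuclear pull-downs (5.29 ± 1.19, limma adjusted p = 5.05e-03), yet its inputs ran the other way (2.17 and 17.4 CPM), and without mitochondrial replicate 1 the limma adjusted p was 0.0953. MX2 also varied within the other pull-down groups, with means of 27.7 CPM (SD 43.0) in non-transfected, 23.2 CPM (SD 29.3) in cytosolic and 10.7 CPM (SD 9.96) in nucleolar pull-downs. Among genes with inputs less than 1 apart on the log2(CPM + 1) scale, the largest nuclear-side differences included C22orf39. It was at 40.8 and 39.02 CPM against 112.7, 153.3 and 116.1 CPM (-1.64 ± 0.127, limma adjusted p = 1.17e-06). Also in this group were MAPK11, a p38 kinase gene (-1.78 ± 0.257), EME2, a subunit of a structure-specific endonuclease (-1.57 ± 0.201), AMH, which encodes anti-Müllerian hormone (-1.57 ± 0.232), and WDR90 (-1.56 ± 0.208).

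The input-corrected calls overlapped in part with those of the pull-downs. Of the 90 genes on the mitochondrial side, 15 were encoded in mitochondrial DNA, and 40 were also called higher in the mitochondrial pull-downs. Of the 60 on the nuclear side, 20 were lncRNAs, and 42 were also called higher in the nuclear pull-downs. On the mitochondrial side 12 of the 90 were lncRNAs, and of the 16133 genes tested 2097 were. In other genes a single input stood apart: CNRIP1 was at 1735 CPM in the nuclear input and at 10.7 to 18.1 CPM in the 5 pull-downs. RGPD6 was at 0.603 CPM in the nuclear input and 77.0 CPM in the mitochondrial one while its near-identical relative RGPD5 was at 86.1 and 1.07 CPM, so the division of reads between them is uncertain.

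Genes called in the 2 directions differed in build. The median transcript GC content was 43.0% for the 2833 nuclear-encoded genes higher in the mitochondrial pull-downs, 59.0% for those higher in the nuclear pull-downs and 50.5% for genes not called. In the quintile of genes with the lowest GC content 39.7% were higher in the mitochondrial and 1.5% in the nuclear pull-downs, and in the highest quintile 0.8% and 26.4%. Median intron length was 2785 bases for the mitochondrial-side and 797 bases for the nuclear-side genes. Across 15942 genes the Spearman correlation of GC content with the difference was -0.557 in the pull-downs and -0.345 in the inputs.

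The same trend ran between replicates of 1 group. The median of the highest-GC quintile minus that of the lowest, each relative to the mean of the 5 pull-downs, was -0.09 in nuclear replicate 1, 0.17 in replicate 2 and 0.64 in replicate 3, and -0.39 and -0.31 in the mitochondrial replicates. Nuclear replicate 1 thus lay closer to the mitochondrial libraries on this axis than to nuclear replicate 3. Without nuclear replicate 3 the calls were 2302 higher in the mitochondrial and 1106 in the nuclear pull-downs, and with a trend on transcript length and GC content removed they were 2128 and 1342. With that trend removed, 22 of the genes named by rule lost their call, among them NORAD, TRA2A, SRRM2, COL3A1 and CNRIP1, and MALAT1 gained one (-0.453, limma adjusted p = 7.75e-03).

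**Figure D5:**
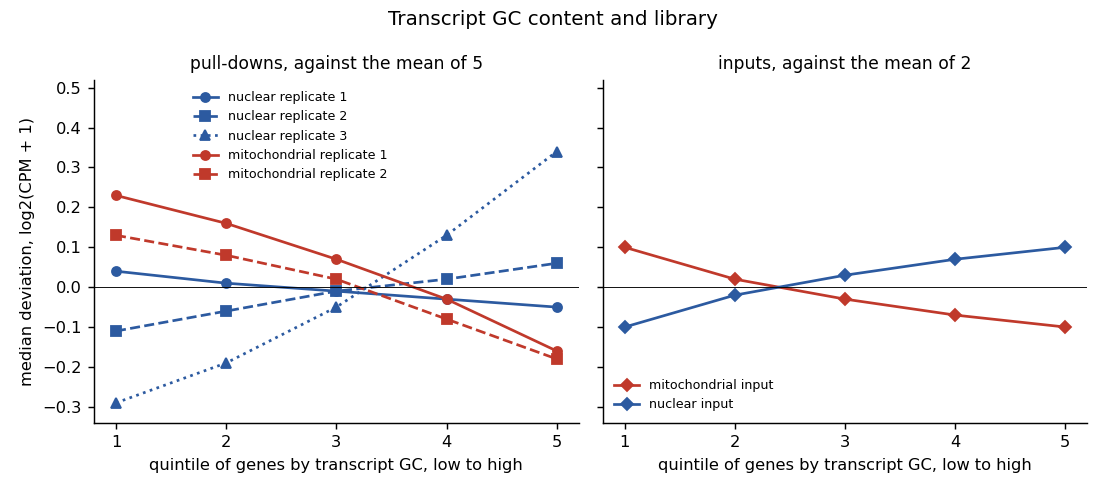
Median deviation of log2(CPM + 1) in quintiles of genes by transcript GC content, for the 5 pull-downs against their mean (left) and the 2 inputs against theirs (right). The nuclear replicates fan out from -0.05 to 0.34 in the highest quintile, and both mitochondrial replicates and the mitochondrial input decline with GC content.

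Annotated retained-intron transcripts were more frequent among genes on the nuclear side. At least 1 such transcript is annotated in GENCODE 29 for 75.1% of protein-coding genes higher in the nuclear pull-downs, for 55% of those higher in the mitochondrial ones and for 52.6% of those not called. Within the highest GC quintile, 43.6% of 901 genes with 3 or more such transcripts were higher in the nuclear pull-downs, against 14.1% of 1096 genes with none, and their median differences were -0.41 and -0.19. Median input differences were -0.26 and -0.18. In the lowest GC quintile the shares were 1.0% and 1.1%. Genes with 3 or more in the highest quintile also have more annotated transcripts of any kind, a median of 14 against 3.5, whose part in the result was not tested. FASTK and CCNL2, both higher in the nuclear pull-downs, have 9 such transcripts each among 17 and 20 annotated.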

How the data were processed

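Per the labels, the authors deposited filtered, TMM-normalized CPM; the deposited values, which reach -2.5907, are on a log2 scale. The submitters' processing notes name STAR 2.7.9a, Salmon 1.4.0, limma and GRCh38. Raising 2 to each deposited log2 value and subtracting 0.166 gave CPM. Of 39823 entries, 14906 had no value and 39 were identical repeats, leaving 24878 genes, of which 24085 (96.8%) matched GENCODE 29. Depth came from the smallest step between low values, and floors of 3 reads cover counting error only.

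Genes with at least 1 CPM in 2 pull-downs entered limma 3.58.1 (R 4.3.3) on the log2(CPM + 1) scale (trend, all 12 pull-downs in 5 groups, Benjamini-Hochberg adjusted p under 0.05). Input-corrected differences used all 16 libraries. Up to 90.1% of low values were whole reads (tolerance 0.01), too few for a count test. The fits were tested on simulated data.

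Named genes had an adjusted p under 0.05, no overlap and at least 5 CPM in the higher group. They were the 10 largest differences in each direction and up to 3 per direction of 27 gene lists. The 10 largest were also taken among genes with inputs less than 1 apart on the log2(CPM + 1) scale. The 13 mitochondrially encoded mRNAs, MT-RNR1, MT-RNR2, MALAT1, NEAT1 and the 5 smallest input-corrected p-values per side were added. A gene that met this last rule on the nuclear side was left out of the named genes. Genes with clone names were counted but not named. The groups, lists and tests were chosen with earlier results of these data known. Alternatives covered scaling, pseudocount, filter, moderation, the libraries fitted, a replicate block and each library left out.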

Additional observations from a re-analysis of the deposited data

Results flagged for a closer look

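For 6 of the genes named by rule the difference between mitochondrial and nuclear libraries was called in the pull-downs and had the opposite sign in the single inputs. The input-corrected difference of these genes also passed at a limma adjusted p under 0.05. It tests whether the pull-down and input differences are equal, not whether their signs are opposite. The sign in the inputs rests on 1 library a side and was not tested. The microRNA hosts MIR503HG and MIR222HG, singled out after their values were seen, showed the same pattern, with input-corrected differences of -1.82 and -2.27. MIR34AHG, the host of miR-34a, had an input-corrected difference of -1.95, with -1.68 in the pull-downs and 0.27 in the inputs. For NEAT1 it was -1.15, and for OGT -0.89, where the input difference was 0.07. With only the mitochondrial and nuclear libraries fitted, the gene lists that hold NEAT1 and OGT had 0 input-corrected calls. For CNRIP1 the input-corrected difference was 7.37, for MAP1LC3B2 3.36 and for PLCXD1 -4.68, and in these 3 genes most of the value came from the inputs. The nuclear input, the shallowest library used here, was at 1735, 5.43 and 0.881 CPM, against 14.1, 0.296 and 26.6 CPM in the mitochondrial input. For MAP1LC3B2 the mitochondrial input also lay far from its pull-downs (3.13 and 2.95 CPM), in a library where 1 read stood for 0.0987 CPM. For NEAT1, input-corrected calls were lost when mitochondrial replicate 1 (limma adjusted p = 0.112), mitochondrial replicate 2 (0.0684) or nuclear replicate 2 (0.0664) was left out.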

How the results depend on the processing

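Genes higher in the mitochondrial and in the nuclear pull-downs numbered 735 and 4044 with CPM rescaled to a common total, 1319 and 2987 with a common total without mitochondrially encoded genes, 1743 and 2439 with median-of-ratios scaling, 1782 and 1754 under quantile normalization, 789 and 730 with the 5 libraries fitted alone, and 19 and 2 when a difference beyond 2-fold was required. With a library left out they ranged from 863 to 3714 and from 719 to 2043. Input-corrected counts were 90 and 60, and became 56 and 231 with a common total, 85 and 106 under quantile normalization, and 44 and 25 with the mitochondrial and nuclear libraries alone. With a library left out they ranged from 50 to 160 and from 25 to 88. The cause of these shifts was not tested. The fold of the mitochondrially encoded mRNA share, 6.22, ranged from 5.53 to 6.92 with a library left out, both ends coming from a mitochondrial one; quantile normalization lowered the median difference of these mRNAs from 3.01 to 2.16. The replicate numbers were shared by 2 pairs only (correlations 0.171 and 0.217), which does not establish a pairing; a replicate block gave 2665 and 1349 calls, and 138 and 85 after input correction. Directions turned for NORAD (-0.001 with a common total and -0.019 under quantile normalization), and under quantile normalization for PSAT1 (-0.004), HSP90AA1 (-0.278) and NPM1 (-0.276). RGPD6, not called, turned to -0.070, -0.044 and -0.069 with a common total, quantile normalization and the length and GC trend removed. UTP14C and LINC00632, also not called, ranged from -0.584 to 0.118 and from -0.125 to 0.020 with a library left out. Of 131 named genes, 46 lost their call without mitochondrial replicate 1.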
